A study of Mus musculus with 4 samples.

Results

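S100 proteins are small calcium-binding proteins with a pair of EF-hand motifs, and 10 of their genes were followed here: S100a1, S100a3, S100a4, S100a6, S100a7a, S100a8, S100a10, S100a11, S100a13 and S100a14. They were taken by symbol from a table of 24907 genes, and each of the 10 had a row. The libraries came from ASZ001, a mouse basal cell carcinoma cell line, in a study of how such tumours turn into squamous cell carcinoma. In the c-FOS group (2 libraries) the cells carried a doxycycline-inducible vector with c-FOS, a subunit of the transcription factor AP-1. In the control group (2 libraries) they carried the empty inducible vector, and both groups received doxycycline. The comparison asks which transcripts differ between cells with the c-FOS vector and cells with the empty vector. No library of cells with the c-FOS vector but no doxycycline was analysed here. The sources used here do not give the duration of treatment, the species of the c-FOS cDNA or whether each line was a clone. The labels do not say that libraries of a group were grown as separate cultures. The p-values therefore reflect the spread among these libraries alone, which may be technical.

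When calcium binds, an S100 dimer exposes a surface that grips a partner protein, and different members prefer different partners: myosin IIA for S100a4, annexins for S100a6, S100a10 and S100a11. Some members also leave the cell and act as danger signals on receptors such as Ager and Tlr4. Most S100 genes lie in a cluster beside the epidermal differentiation complex, the block of genes for proteins of the cornified skin surface, and several S100 proteins are known for high levels in wounded, psoriatic or tumorous skin.

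Total deposited counts were 29200592 and 32465409 in the c-FOS libraries and 28405433 and 29822437.5 in the control libraries. CPM values are counts scaled to library size, with sizes adjusted by TMM, edgeR's trimmed mean of M-values. Fos, the gene in the vector, had 296.8 and 313.4 CPM in the c-FOS libraries and 0.404 and 0.351 CPM in the control libraries, as the labels say. Basal keratinocyte and basal cell carcinoma markers were present in all 4 libraries, with a summed level of 11414 and 11950 CPM in the c-FOS libraries and 24725 and 24712 CPM in the control libraries. Of these 9 markers, 8 fell, against 33.3% of all genes tested. Endothelial markers summed to 218.9 and 214.2 CPM in the c-FOS libraries and 117.3 and 116.9 CPM in the control libraries, dendritic and Langerhans markers to 0.324 and 0.323 CPM with c-FOS and 2.59 and 1.66 CPM in control cells, and melanocyte and Schwann markers to 49.0 and 51.8 CPM with c-FOS and 49.9 and 52.3 CPM in control cells. Most of the endothelial sum came from Pecam1 (mean 100.6 CPM with c-FOS and 81.3 in control cells) and Flt1 (111.3 and 30.9). Cdh5 had at most 1 count in a library, Egfl7 had 2.62 CPM with c-FOS and 4.12 in control cells, and Tek 1.97 and 0.767. H2-Ab1 made up nearly all of the dendritic sum, with Cd207 and Itgax at 0 in all 4 libraries. Mitf (49.4 and 49.8 CPM) made up nearly all of the melanocyte sum, with Tyr and Mlana at 0. The part of these markers in the results on S100 genes was not tested. In such bulk samples, fewer cells of a type and less RNA per cell cannot be told apart.

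Of the 10 members, 6 rose with c-FOS: S100a7a, S100a4, S100a8, S100a6, S100a10 and S100a11. None fell, and S100a3 and S100a14 did not pass an adjusted p of 0.05, from the edgeR quasi-likelihood test with p-values adjusted over all genes by the Benjamini-Hochberg method. S100a13 and S100a1 were too low to be tested. The share of tested members called in either direction, 6 of 8 (75%), was near that of all genes tested (67.1% of 12791). The direction was less even: 6 of 8 tested members were called higher, against 33.8% of all genes, and 0 of 8 were called lower, against 33.3%. The median log2 fold change was 1.27 for the tested members and -0.01 for all genes tested. S100a8 entered the test only through its c-FOS counts, and without it, a count made after its values were seen, 5 of 7 tested members rose, with a median of 0.90. Of all genes counted the same way, 33.1% rose and 33.3% fell, with a median of -0.008. The groups did not overlap for 7 of 8 tested members (87.5%), or 6 of 7 (85.7%) without S100a8, close to the 83.6% of all genes.

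**Figure D1:**
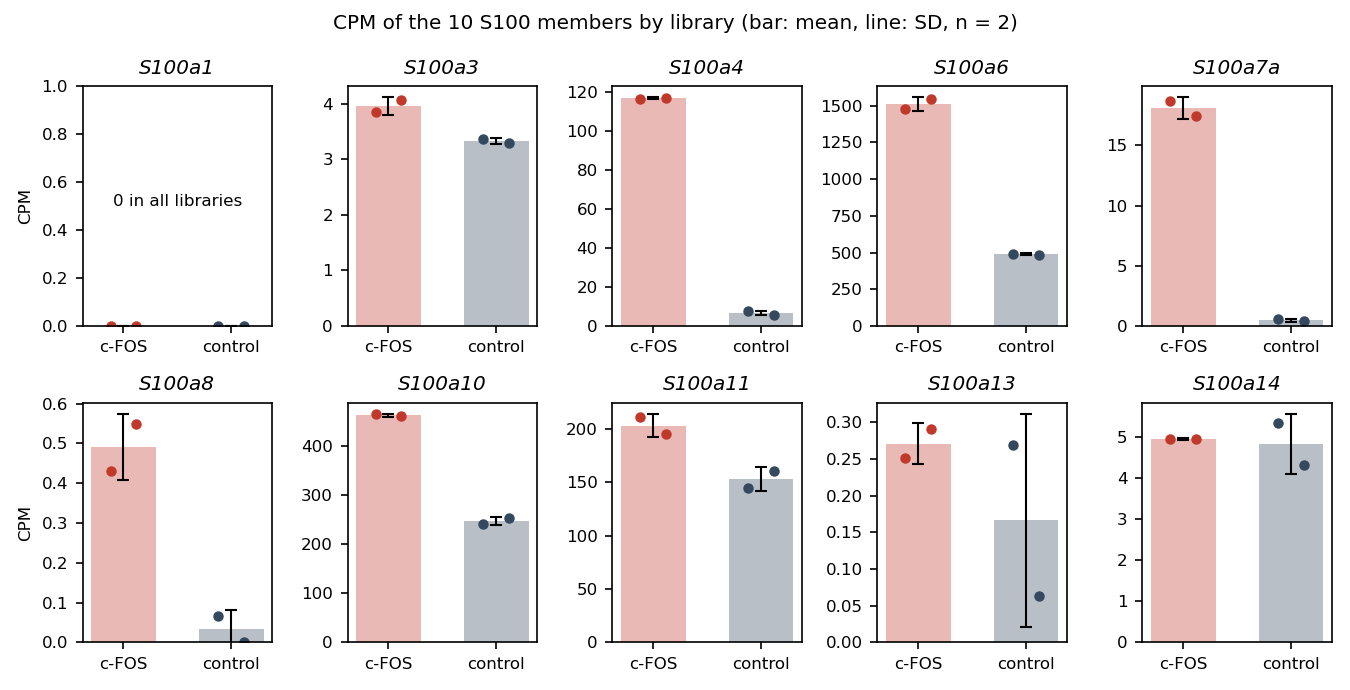
CPM (vertical axis, a separate scale in each panel) of the 10 S100 members in the 2 c-FOS and the 2 control libraries. Points are libraries, bars are means and lines are SD (n = 2). S100a4 stood at 116.4 and 117.0 CPM with c-FOS against 7.43 and 5.75 CPM in control cells, while S100a14 overlapped between the groups and S100a1 was at 0 throughout.

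**Figure D2:**
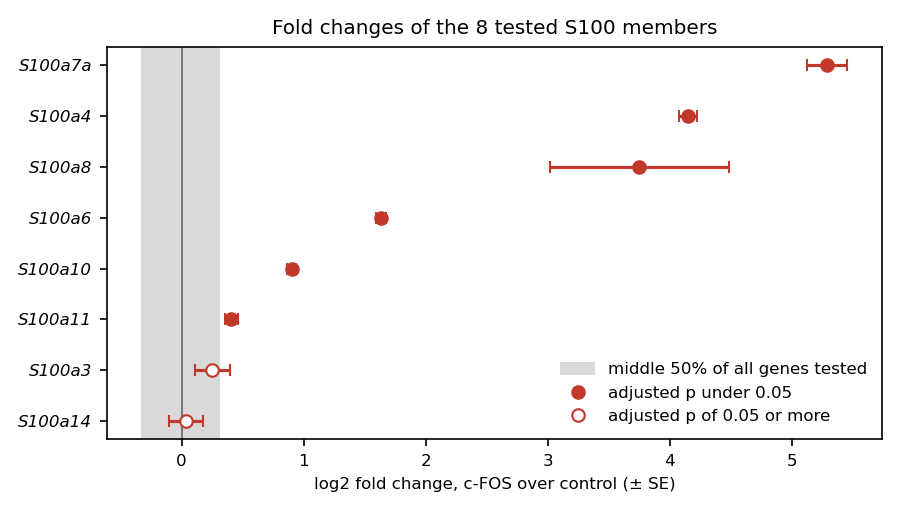
Log2 fold change of c-FOS over control (horizontal axis, ± SE) for the 8 tested members. Filled points had an adjusted p under 0.05 and the grey band holds the middle 50% of all genes tested, from -0.33 to 0.31. The points run from 5.29 for S100a7a to 0.04 for S100a14.

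The sequences before the gene starts were read because c-FOS acts through AP-1 sites. The RefSeq promoter table (build GRCm38.p6, not the mm9 build of the counts) holds 250 bases before and 50 bases after each start, and 8 of the 10 members had an entry (11 windows, 4 of them from S100a3). S100a10 and S100a14 had none. Each window was searched for TGANTCA, the AP-1 core motif, which is its own reverse complement, so a single search covers both strands. S100a11 was the member with a match, and it had 2, whose first bases lay 136 and 38 bases before the start. Of all 32851 windows in the table, 7.81% held a match and 0.460% held 2 or more. Of the 12791 genes tested here, 9871 had a window. Among these, 8.85% of those called higher, 5.95% of those called lower and 4.78% of those not passing had a match. The windows of S100a7a, S100a4 and S100a6, the members with clear expression that rose most, held no match, nor did those of S100a8, S100a3, S100a13 and S100a1. Outside the members, S100a16, S100a7l2 and Anxa2 were looked up by name, and Anxa2 was the only partner gene among them. S100a16 had 1 match, 192 bases before the start, in the window of 1 start and none in that of another. S100a7l2 had 1 match, 77 bases before its start. A match is a description of letters, not a bound site, and no match concerns this window alone. The windows of S100a11, of the 3 members S100a4, S100a6 and S100a7a, and of Anxa2, the partner of S100a10 with 1 match 95 bases before its start, are given 5′ to 3′ on the plus strand, with matches to TGANTCA in capitals.
S100a11 (chr3:93520246-93520545): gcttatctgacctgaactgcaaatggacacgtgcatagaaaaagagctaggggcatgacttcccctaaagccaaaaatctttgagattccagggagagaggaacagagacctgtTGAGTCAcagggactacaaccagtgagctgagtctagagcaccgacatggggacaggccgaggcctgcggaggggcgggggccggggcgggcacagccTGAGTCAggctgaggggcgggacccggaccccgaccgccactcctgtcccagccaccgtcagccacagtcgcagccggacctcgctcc
S100a4 (chr3:90603520-90603819): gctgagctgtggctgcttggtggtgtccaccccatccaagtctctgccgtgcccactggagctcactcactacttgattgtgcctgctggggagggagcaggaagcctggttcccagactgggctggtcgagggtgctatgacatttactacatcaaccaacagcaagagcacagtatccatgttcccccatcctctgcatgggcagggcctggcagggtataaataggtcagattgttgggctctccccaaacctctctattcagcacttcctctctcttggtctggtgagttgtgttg
S100a6 (chr3:90612644-90612943): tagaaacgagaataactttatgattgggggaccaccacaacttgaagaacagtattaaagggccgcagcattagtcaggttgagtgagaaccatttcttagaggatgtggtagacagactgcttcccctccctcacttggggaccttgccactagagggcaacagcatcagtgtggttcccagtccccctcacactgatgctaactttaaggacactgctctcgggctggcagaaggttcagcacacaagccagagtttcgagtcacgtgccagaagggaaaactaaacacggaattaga
S100a7a (chr3:90654052-90654351): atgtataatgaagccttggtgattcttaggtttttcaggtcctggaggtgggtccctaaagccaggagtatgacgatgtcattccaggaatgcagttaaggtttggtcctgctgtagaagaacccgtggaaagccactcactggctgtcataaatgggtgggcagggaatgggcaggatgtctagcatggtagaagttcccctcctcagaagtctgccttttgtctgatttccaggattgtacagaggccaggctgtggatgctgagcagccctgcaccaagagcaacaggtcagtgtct
Anxa2 (chr9:69453433-69453732): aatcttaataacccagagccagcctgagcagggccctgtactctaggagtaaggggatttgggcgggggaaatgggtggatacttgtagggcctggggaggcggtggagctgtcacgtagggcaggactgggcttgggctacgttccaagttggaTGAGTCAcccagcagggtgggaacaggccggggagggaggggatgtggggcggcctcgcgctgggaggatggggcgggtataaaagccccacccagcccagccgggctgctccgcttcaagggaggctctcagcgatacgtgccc

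S100a7a rose most. Its human relatives S100A7 (psoriasin) and S100A7A are secreted by keratinocytes and are abundant in psoriatic skin. The deposited counts were 521 and 540 in the c-FOS libraries and 15.5 and 12 in the control libraries, or 18.7 and 17.4 CPM with c-FOS and 0.538 and 0.383 CPM in control cells. Every c-FOS value thus lay far above every control value. The log2 fold change was 5.29 ± 0.16 (SE), 39.0-fold, and the adjusted p in that edgeR test was 2.6e-12. Only 84 of the 12791 genes tested had a higher log2 fold change. The near relative S100a7l2 had no row, so how reads that fit both genes were counted is not known.

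S100a4, also called metastasin or fibroblast-specific protein 1, binds myosin IIA and is known for promoting cell motility. It had counts of 3238 and 3624 in the c-FOS libraries and of 220.5 and 180 in the control libraries. On the CPM scale these were 116.4 and 117.0 with c-FOS and 7.43 and 5.75 in control cells, so the c-FOS libraries differed by less than 1 CPM and stood far above both controls. The log2 fold change was 4.15 ± 0.08 (SE), 17.7-fold (edgeR, adjusted p = 1.77e-14). Because S100a4 is widely used as a fibroblast marker, a list of fibroblast markers was read beside it: Col1a1, Col1a2, Col3a1, Dcn, Lum, Thy1, Pdgfra and Pdgfrb. Of these 8 markers, 4 were tested and 3 rose, against 33.8% of all genes, and the summed level of all 8 was 17.7 and 19.2 CPM in the c-FOS libraries and 5.45 and 5.68 CPM in the control libraries. Thy1 was at 0 in all 4 libraries, Lum had 0 counts with c-FOS, and Col3a1 had 0 and 1 count with c-FOS and 0 and 1 in control cells. Dcn, which was not tested, was lower with c-FOS, with counts of 4 and 3.5 against 8.5 and 18.5 in control cells. Col1a1 had counts of 13 and 18 with c-FOS and of 11.5 and 6 in control cells, and did not pass (edgeR, adjusted p = 0.107). The 3 that rose were Pdgfra (11.6 ± 0.369 CPM with c-FOS and 4.24 ± 0.00736 CPM in control cells), Col1a2 (3.45 ± 0.653 CPM with c-FOS and 0.539 ± 0.0962 CPM in control cells; SD, n = 2 each) and Pdgfrb, which had counts of 75.5 and 82 with c-FOS and of 0 and 0 in control cells and so was tested only through its c-FOS counts. Without Pdgfrb, a count made after its values were seen, 2 of 3 tested markers rose, against 33.1% of all genes counted the same way. The part of the fibroblast markers in the S100a4 result was not tested.

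S100a6 (calcyclin), which binds annexins and the calcyclin-binding protein Cacybp, had the highest level of the members in every library, per length as well as in CPM. It had 1478 and 1543 CPM in the c-FOS libraries and 491.9 and 482.6 CPM in the control libraries. The replicates of each group lay close together and the groups were far apart. The log2 fold change was 1.63 ± 0.04 (SE), 3.10-fold (edgeR, adjusted p = 1.83e-13).

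S100a10 (p11) has lost the ability to bind calcium and forms a stable complex with annexin A2 at the plasma membrane. It had 464.2 and 459.9 CPM with c-FOS and 241.9 and 252.3 CPM in control cells. Its log2 fold change was 0.90 ± 0.04 (SE), 1.87-fold (edgeR, adjusted p = 6.07e-11). S100a11 (calgizzarin), a partner of annexin A1 known from growth control of keratinocytes, had 210.8 and 195.3 CPM in the c-FOS libraries and 145.0 and 160.9 CPM in the control libraries. The groups did not overlap, but the gap between them was narrow: the log2 fold change was 0.41 ± 0.05 (SE), 1.33-fold (edgeR, adjusted p = 8.13e-06). RefSeq lists a pseudogene, S100a11-ps, with no row in the table, so how reads that fit both were counted is not known. Library totals in place of TMM factors lowered the median log2 fold change over all genes by 0.14, and S100a11 was then at 0.27 and still passed.

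S100a8 was barely detected. With S100a9 it forms calprotectin, an abundant metal-binding protein of neutrophils that stressed keratinocytes also make. The counts of S100a8 were 12 and 17 in the c-FOS libraries and 2 and 0 in the control libraries. Over both libraries of a group the ratio of c-FOS to control was 15.1, with an exact 95% counting interval of 3.81 to 130.2 that covers counting error only. The adjusted p was 0.000456 in the same edgeR test. S100a8 entered that test only through its c-FOS counts, so it could enter only as a higher gene. Both control counts came from control replicate 1. Without that library the control had 0 counts. The c-FOS level over both c-FOS libraries was 5.15-fold that of a floor of 3 control counts, with counting error in c-FOS left out. Without control replicate 2 the log2 fold change was 2.80, and without c-FOS replicate 2 the gene was too low to be tested. S100a9, its partner and chromosome neighbour, had 0 counts in all 4 libraries. Neutrophil and macrophage markers were read beside S100a8. Of 10 with a row, Ly6g, Csf3r and Elane, which mark neutrophils, were at 0 in all 4 libraries. The list summed to 32.4 and 33.9 CPM in the c-FOS libraries and to 12.4 and 10.7 CPM in the control libraries, nearly all of it from Csf1r (18.4 ± 0.0445 CPM with c-FOS and 0.314 ± 0.127 CPM in control cells; SD, n = 2) and Cd68 (14.3 ± 1.12 CPM with c-FOS and 11.1 ± 1.05 CPM in control cells). The rest of the list with a row was near 0. Ptprc had counts of 2.5 and 1.5 with c-FOS and of 1 and 0 in control cells. Lyz2 had 3.5 and 3 with c-FOS and 3 and 1 in control cells, and Itgam, Mpo and Adgre1 had at most 3 counts in a library. The part of Csf1r-expressing or Cd68-expressing cells in the S100a8 counts was not tested.

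The other 4 members did not differ beyond the test's threshold or could not be tested. S100a14, a membrane-associated protein of epithelia, had 4.96 and 4.94 CPM in the c-FOS libraries and 5.35 and 4.31 CPM in the control libraries. The c-FOS values lay between the control values (log2 fold change 0.04 ± 0.14 SE, adjusted p = 0.824 in the same edgeR test), and the sign turned with library totals, with upper-quartile factors and without control replicate 2. S100a3, a cysteine-rich protein of the hair cuticle, had 3.85 and 4.07 CPM with c-FOS and 3.36 and 3.29 CPM in control cells. The groups did not overlap, but the difference did not pass (0.25 ± 0.14 SE, adjusted p = 0.136 in the same edgeR test). A p that misses the threshold does not show that the levels were equal. S100a13, which takes part in the release of Fgf1 and Il1a from cells, had counts of 7 and 9 in the c-FOS libraries and of 8 and 1.5 in the control libraries, and the groups overlapped. S100a1, a regulator of calcium handling in heart and muscle, had 0 counts in all 4 libraries. A count of 0 over a group allows a level of up to 0.0510 CPM with c-FOS and 0.0491 CPM in control cells, a floor of 3 counts that covers counting error only. The genes S100a1 and S100a13 overlap by 98 bases on opposite strands in the RefSeq table, and the sources used here do not say whether the counting used strand. S100a3 and S100a2 overlap by 1262 bases on the same strand there, so how their shared reads were counted is not known.

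Levels of different genes were compared per length, as TPM: counts divided by the gene model length in the table, then scaled to the same total in every library. In the c-FOS libraries the order was S100a6 (5971 ± 164 TPM), S100a10 (2022 ± 18.5), S100a11 (1149 ± 64.8), S100a4 (666.7 ± 0.710), S100a7a (69.3 ± 3.69), S100a3 (13.8 ± 0.554), S100a14 (13.03 ± 0.0731), S100a8 (3.57 ± 0.597) and S100a13 (1.08 ± 0.107), with S100a1 at 0 (SD, n = 2 each). No neighbours in that order overlapped. In the control libraries S100a6 (2034 ± 20.3 TPM), S100a10 (1142 ± 37.7), S100a11 (913.9 ± 70.2) and S100a4 (39.7 ± 6.97) came first again, then S100a14 (13.4 ± 2.02), S100a3 (12.2 ± 0.149), S100a7a (1.83 ± 0.389), S100a13 (0.665 ± 0.655) and S100a8 (0.258 ± 0.365; SD, n = 2 each). S100a1 was at 0 there too. In the control order S100a14 and S100a3 overlapped, as did S100a13 and S100a8, and S100a8 and S100a1. S100a7a thus stood above S100a3 and S100a14 with c-FOS and below them in control cells.

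The 10 members together reached 9853 and 9965 TPM in the c-FOS libraries and 4104 and 4213 TPM in the control libraries. The ratio of the group means was 2.38, and 1.85 when S100a6 was left out. S100a6 made up 60.3% ± 1.18 of the summed level with c-FOS and 48.9% ± 1.40 in control cells, and S100a4 made up 6.73% ± 0.0467 with c-FOS and 0.957% ± 0.185 in control cells (SD, n = 2 each). The shares of S100a10 and S100a11 were lower with c-FOS, at 20.4% ± 0.350 and 11.6% ± 0.747, than in control cells, at 27.5% ± 0.398 and 22.0% ± 1.28, although the levels of these genes rose.

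**Figure D3:**
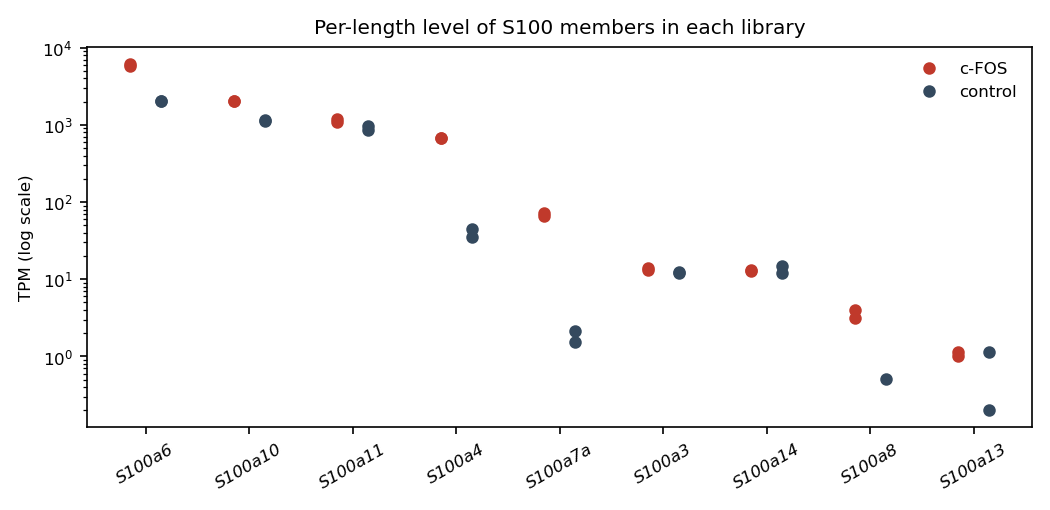
TPM (vertical axis, log scale) of the members in each library, with c-FOS points left of control points. Values of 0 cannot be drawn on a log axis: S100a1 is left out and S100a8 has a single control point. The 4 most abundant members, S100a6, S100a10, S100a11 and S100a4, are the same in both groups, and S100a4 and S100a7a show the widest gaps among members with more than a few counts.

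All 10 members lie on chromosome 3, and the genes around them were read in the order of the RefSeq table, over 121 genes that begin 10 genes before S100a1 and end 10 genes after S100a10. Of the 12 tested genes between the outermost members that are no members themselves, 2 rose, 8 fell and the other 2 missed the threshold (median log2 fold change -1.56). Of the 8 that fell, Lelp1, Lor, Crnn and Ivl, which encodes involucrin of the cornified envelope, reached the minimum count of the filter in both control libraries and in no c-FOS library, so they could enter only as lower genes. Without these 4, a count made after their values were seen, 2 of 8 rose and 4 of 8 fell, against 33.1% and 33.3% of all genes counted the same way, and the median was -0.66. Over all 19 tested neighbours, with those before S100a1 included, 3 rose and 13 fell, and 3 and 9 of 15 without those 4 genes. The 3 that rose were S100a16, Snapin, which encodes a vesicle docking protein, and Sprr1a, which encodes a cornified envelope precursor; these, like Ivl, were named after their values were seen. The neighbours that fell most were Lelp1 (-3.74), Sprr2a3 (-2.43), Tchhl1 (-2.03) and Lor (-2.02), which encodes loricrin, the main protein of the cornified envelope. Lelp1 and Lor were low in both groups. Lelp1 had counts of 2 and 0 with c-FOS and of 11 and 19.5 in control cells, and its log2 fold change was -2.75 without c-FOS replicate 2, while without c-FOS replicate 1 the c-FOS group was at 0 and without control replicate 2 the gene was too low to be tested. Lor had counts of 3.5 and 2 with c-FOS and of 15 and 10.5 in control cells. It was too low to be tested with counts rounded down or with a minimum count of 50. Lor lost its call in DESeq2 (adjusted p = 0.108). It also lost it without c-FOS replicate 2 (-1.54; edgeR, adjusted p = 0.111). Sprr2a3 has near-identical copies in the same cluster, which can share its reads. The 21 late cornified envelope (Lce) genes together had 18 counts over the 4 libraries.

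**Figure D4:**
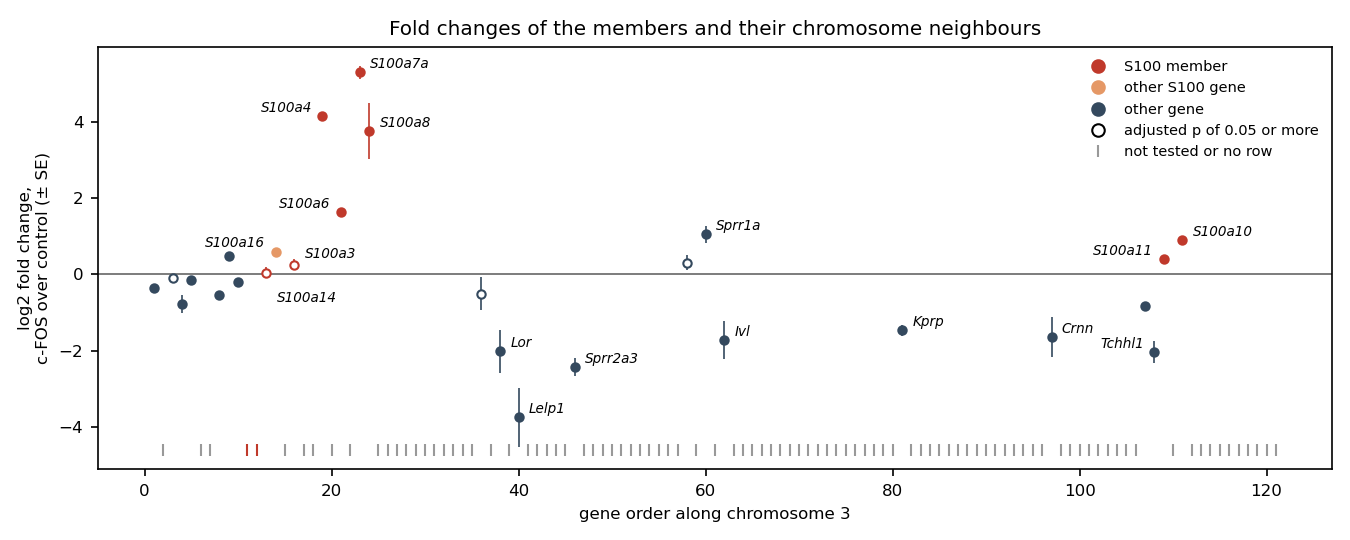
Log2 fold change of c-FOS over control (vertical axis, ± SE) against gene order along chromosome 3 (horizontal axis). Red points are S100 members, the orange point is S100a16, dark points are other genes, open points had an adjusted p of 0.05 or more, and ticks mark genes with no test or no row. S100a4, S100a6, S100a7a and S100a8 stand above 1.5 and close together, whereas Lor, Sprr2a3, Lelp1, Ivl, Crnn and Tchhl1 stand below -1.5.

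Within the cluster, neighbours differed. S100a5 lies between S100a4 and S100a6, which both rose, and had 0 and 0.5 counts with c-FOS and 0 and 0 in control cells. S100a2 had counts of 1 and 0 with c-FOS and of 2.5 and 1 in control cells, and S100a9 was at 0 next to S100a8. S100a16, which is expressed in many tissues, was the single tested gene among the other S100 genes with a row (7 of 10 listed). It had 86.4 ± 1.36 CPM with c-FOS and 57.2 ± 2.09 CPM in control cells (SD, n = 2 each) and rose by 0.59 ± 0.05 (SE) on the log2 scale (edgeR, adjusted p = 4.48e-08). The S100 genes on other chromosomes were near 0: S100b had counts of 0 and 3 with c-FOS and of 1 and 1.5 in control cells, S100z had 0.5 and 0 with c-FOS and 0 and 0 in control cells, and S100g had 0 in all 4 libraries. S100a7l2, S100a12 and S100p had no row.

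The fused-type S100 genes encode long proteins of hair follicle and cornified epidermis that begin with an S100 domain. Of 7 listed, 3 were tested and all 3 fell, against 33.3% of all genes. Crnn was tested only through its control counts, so the count without it is 2 of 2. Tchh, which encodes trichohyalin of the inner root sheath, had 27.8 ± 0.346 CPM with c-FOS and 49.1 ± 3.11 CPM in control cells (SD, n = 2 each), and its log2 fold change was -0.82 ± 0.06 (SE; edgeR, adjusted p = 3.98e-08). Tchhl1, its neighbour, had counts of 9.5 and 15 with c-FOS and of 55 and 52 in control cells. Crnn, which encodes cornulin, had counts of 5 and 5 with c-FOS and of 10 and 22.5 in control cells (-1.64, adjusted p = 0.0126 in the same edgeR test). The call of Crnn was lost in DESeq2 (adjusted p = 0.133) and without control replicate 2 (-0.96; edgeR, adjusted p = 0.184). It was lost as well when c-FOS replicate 1 (-1.71; edgeR, adjusted p = 0.0587) or c-FOS replicate 2 (-1.56; edgeR, adjusted p = 0.0869) was left out. Rptn had 3 counts in control replicate 1 and 0 elsewhere, Flg2 and Hrnr had 0 counts in all 4 libraries, and Flg had no row.

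Genes for proteins that bind S100 proteins were mostly called, 10 of 16 tested as higher and 5 as lower (median 0.69), against 33.8% and 33.3% of all genes. The 5 called lower were Fgf1 (log2 fold change -1.27), Sugt1 (-0.23), Ncl (-0.22), Trp53 (-0.16) and Atp2a2 (-0.097). The annexin genes on the list rose, as did the members that bind annexins. Anxa2, the partner of S100a10, had 1080 ± 15.7 CPM with c-FOS and 696.4 ± 0.787 CPM in control cells, and Anxa1, the partner of S100a11, had 648.4 ± 6.18 CPM with c-FOS and 253.0 ± 8.40 CPM in control cells (SD, n = 2 each). Their log2 fold changes were 0.63 ± 0.04 and 1.36 ± 0.04 (SE), with adjusted p of 1.54e-09 and 1.04e-12 in the same edgeR test. Anxa6, another annexin that binds S100 proteins, rose by 1.47. Ahnak, a giant scaffold held at the membrane by the S100a10 and annexin A2 complex, had 3461 ± 161 CPM with c-FOS and 1856 ± 167 CPM in control cells and rose by 0.90. Plat, the tissue plasminogen activator that S100a10 binds at the cell surface, rose by 1.36.

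Myh9, the myosin IIA heavy chain bound by S100a4, had 1793 ± 5.26 CPM with c-FOS and 881.4 ± 17.9 CPM in control cells (SD, n = 2 each), and its log2 fold change was 1.02 ± 0.04 (SE; edgeR, adjusted p = 1.21e-11). Cacybp, which S100a6 binds, had 99.0 ± 3.47 CPM with c-FOS and 82.9 ± 6.91 CPM in control cells. It rose by 0.25, but did not pass with library totals (0.12; edgeR, adjusted p = 0.0671). Fgf1, whose release uses S100a13, had 21.5 ± 0.668 CPM with c-FOS and 51.7 ± 1.65 CPM in control cells and fell by 1.27 on the log2 scale (adjusted p = 3.02e-10 in the same test). Il1a, another cargo of S100a13, had 0 and 0 counts with c-FOS and 0 and 1 in control cells.

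**Figure D5:**
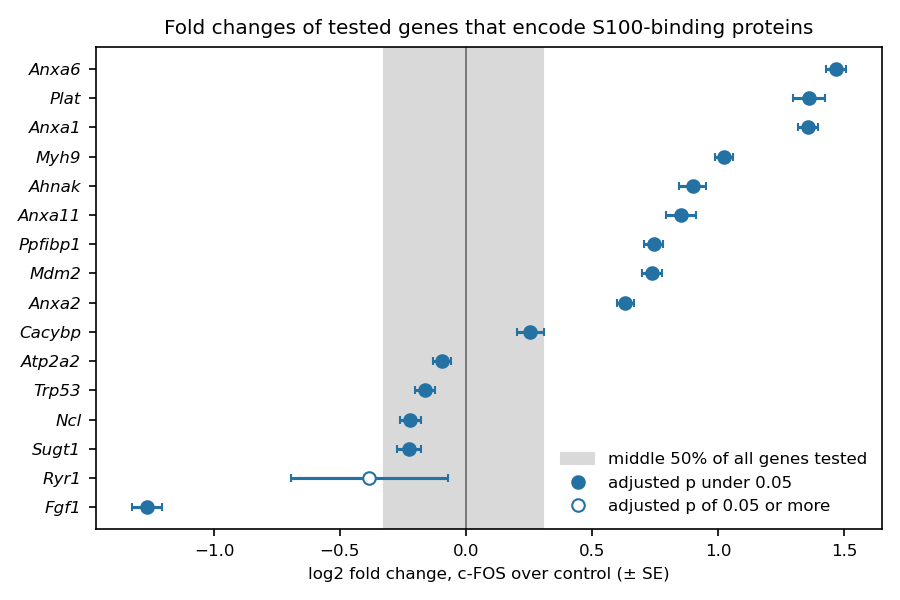
Log2 fold change of c-FOS over control (horizontal axis, ± SE) of the 16 tested genes for proteins that bind S100 proteins, with filled points for an adjusted p under 0.05 and a grey band for the middle 50% of all genes tested. The annexin genes, Ahnak, Plat and Myh9 stand between 0.63 and 1.47, and Fgf1 stands at -1.27.

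Of the proposed receptors of secreted S100 proteins, 3 of 9 tested rose, 2 fell and the other 4 missed the threshold (median 0.08). The share that rose was near the 33.8% of all genes, and 33.3% of all genes fell. Tlr4, a receptor for S100a8 and S100a9, had 104.7 ± 1.17 CPM with c-FOS and 32.8 ± 1.07 CPM in control cells (SD, n = 2 each) and rose by 1.67 ± 0.05 (SE) on the log2 scale. Its co-receptor gene Cd14 rose by 0.68. Ly96 and Myd88, also on the list, overlapped between the groups and missed the threshold. Their log2 fold changes were 0.28 and 0.08, with adjusted p of 0.208 and 0.526 in the same edgeR test. Mcam fell to 29.5 ± 1.93 CPM with c-FOS, against 126.8 ± 1.57 CPM in control cells, and Alcam fell by 1.91 on the log2 scale. Ager, the receptor for advanced glycation end products, had counts of 3 and 16 with c-FOS and of 22.5 and 10.5 in control cells and missed the threshold (-0.78; edgeR, adjusted p = 0.227).

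Among other EF-hand calcium sensors and buffers, 8 of 16 tested rose, 3 fell and the other 5 missed the threshold (median 0.17, against -0.01 for all genes). The share called in either direction, 68.8%, was near the 67.1% of all genes, of which 33.8% rose and 33.3% fell. Among the genes with large changes were Calml3, an EF-hand gene of epithelia (-2.96), Nucb2, which encodes nucleobindin 2 (1.62), and Capns1, the small calpain subunit (1.53).

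The tested genes most like S100a7a over the 4 libraries, by Euclidean distance of mean-centred log2 CPM, were Plvap (distance 0.243), Greb1 (0.272) and Prrx2 (0.373). All were low in control cells, with mean levels of 0.149, 0.214 and 0.0496 CPM, so their distances rest on few control counts. The genes most like S100a11, the member that rose least, were Zfp945 (0.0171), Zfp800 (0.0294) and Hsp90b1 (0.0296). These distances rest on 4 libraries in 2 groups.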

How the data were processed

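The 4 RNA-seq libraries were made from total RNA of adherent ASZ001 cells. Per the series design text, the reads went through TopHat and then HOMER. The submitters' processing notes also name DESeq2 and the build mm9. The sources used here give no versions and no annotation. The authors deposited expected counts per gene, not normalized, in steps of 0.5, with a gene model length per row (unit: bases, an other value). No source used here says how these steps arose. Of 24909 rows, 2 that repeated a symbol were dropped in favour of the row with the higher total.

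Counts were rounded to whole numbers, with 0.5 rounded up, filtered with filterByExpr (minimum count 10, minimum total 15), which left 12791 genes, and tested with edgeR 4.0.16 (R 4.3.3): TMM factors, a two-sided quasi-likelihood test with no covariate (c-FOS over control), and Benjamini-Hochberg adjustment over all 12791 genes at 0.05. The pipeline was tested on simulated data. SE are derived from the F statistic, SD are over n = 2, and TPM use all rows and the deposited counts. Replicates differed by more than sampling noise (chi-square per degree of freedom 1.98 in c-FOS and 5.00 in control). Members and lists were chosen with earlier results of these data known. Named were all members, from each list the 4 called genes with the largest absolute log2 fold change, 7 partner genes fixed by name, untested members of lists under 10 genes, and 3 genes most like each of 2 members. Other list members were named after their values were seen. One gene that this rule names is not reported here. The alternatives were 3 other scalings, 2 other filters, rounding down, DESeq2 1.42.0, a replicate block and leaving out each library. Promoter sequences are from RefSeq (GRCm38.p6). Protein sequences were not analysed here.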

Additional observations from a re-analysis of the deposited data

How the results depend on the processing

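Of the 12 alternatives, each member called higher kept its direction and its call in all those in which it was tested. S100a8 was not tested with a minimum count of 50 or without c-FOS replicate 2, so that 5 members were called there and 6 elsewhere, a range of 5 to 6 over the fits that left out a library. No member was called lower in any alternative. S100a14, which did not pass, turned sign with library totals (-0.10), with upper-quartile factors (-0.024) and without control replicate 2 (-0.11), and was 0.20 without control replicate 1. The log2 fold change ranged from 5.06 to 5.54 for S100a7a, 3.97 to 4.34 for S100a4, 1.495 to 1.67 for S100a6, 0.77 to 0.93 for S100a10 and 0.27 to 0.49 for S100a11. Library totals gave 3217 genes higher and 5879 lower, against 4324 and 4265 with TMM factors.

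Leaving out the tested genes that reached the minimum count in both libraries of 1 group and in none of the other, an alternative chosen after seeing the data, left 4082 genes higher and 4106 lower, with 5 members higher and 0 lower. With the replicate number as a block, 6 members were higher and 0 lower, and 4246 genes were higher and 4218 lower. Same-numbered libraries did not deviate together (correlation -0.069 over genes), and the labels do not say that a number marks a shared culture or day. Among the lists, library totals gave 5 in place of 3 EF-hand genes lower, leaving out c-FOS replicate 2 gave 3 in place of 5 partner genes lower, and leaving out control replicate 2 gave 5 in place of 3 receptor genes higher; the cause was not tested. Depth limits S100a8, S100a13 and S100a1, which had at most 17 counts in a library.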
